A study of Homo sapiens with 3 samples.

Results

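The genes of prostaglandin E2 synthesis and breakdown were examined in a map of ETS1 binding in SCC25 cells. They are PLA2G4A, PTGS1, PTGS2, PTGES, PTGES2, PTGES3 and HPGD, that is 7 of the 20098 protein-coding genes annotated by GENCODE release 44 on hg19 (GRCh37). They were named by pathway and not by a measured value, but earlier results of these data were known when they were chosen. A peak was counted for a gene if its midpoint lay in the gene body or within 100 kb of it, and 49 of the 26970 peaks in the list met this rule, with 0 shared between members. ETS1 was mapped by chromatin immunoprecipitation and sequencing (ChIP-Seq) in SCC25, an established tongue cancer line of squamous type that the labels describe as mesenchymal. The labels name no treatment, and the paper's methods list fetal bovine serum and hydrocortisone in the medium of this line. There were 3 ChIP samples, 2 with the C20 antibody against ETS1 and 1 with the 501A antibody, and the authors combined them into 1 consensus list through IDR, a procedure that keeps peaks whose ranks are reproducible between samples. The list gives a position and a width for each peak and no height, score, depth or value per sample. The counts below are therefore counts of listed positions in 1 cell line with no spread between samples, the antibodies cannot be compared, and the identity of the cells cannot be checked against marker genes. The list holds only peaks that passed the authors' threshold, so a gene without a listed peak is not a gene shown to lack ETS1.

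Prostaglandin E2 is made in steps. Cytosolic phospholipase A2, the product of PLA2G4A, releases arachidonic acid from membrane phospholipids, the cyclooxygenases encoded by PTGS1 and PTGS2 convert it to prostaglandin H2, and the prostaglandin E synthases encoded by PTGES, PTGES2 and PTGES3 convert that to prostaglandin E2. HPGD, a hydroxyprostaglandin dehydrogenase, inactivates the product. PTGS2 is the inducible cyclooxygenase and is often raised in squamous cell carcinomas of the head and neck, while HPGD is often lowered in epithelial tumours. ETS factors bind DNA through a GGAA core whose flanking bases set the affinity, and longer cores of an A form (AGGAAG or AGGAAA) and a C form (CGGAAG or CGGAAA) were searched here on both strands.

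The sequences below come from the hg19 reference and show the DNA under the peaks at or next to the start sites of the members, read 5′ to 3′ on the strand of the gene, with the upstream sequence of the members that had no peak for comparison. Each is a run of up to 200 bases free of coding exons, the nearest such run to the midpoint of the peak or to the outermost start of the gene. Capitals mark a core of the A form or the C form, or its reverse complement.
PTGS1 start site peak, chr9:125133122-125133290, plus strand: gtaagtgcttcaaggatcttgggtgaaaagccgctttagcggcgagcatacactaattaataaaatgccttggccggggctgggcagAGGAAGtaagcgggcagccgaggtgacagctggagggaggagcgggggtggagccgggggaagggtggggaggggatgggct
PTGS2 start site peak, chr1:186649565-186649764, minus strand: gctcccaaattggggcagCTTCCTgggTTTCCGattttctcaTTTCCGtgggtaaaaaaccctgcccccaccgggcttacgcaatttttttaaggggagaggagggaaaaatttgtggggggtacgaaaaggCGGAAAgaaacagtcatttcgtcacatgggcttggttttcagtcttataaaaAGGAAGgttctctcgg
PTGES start region peak, chr9:132514296-132514495, minus strand: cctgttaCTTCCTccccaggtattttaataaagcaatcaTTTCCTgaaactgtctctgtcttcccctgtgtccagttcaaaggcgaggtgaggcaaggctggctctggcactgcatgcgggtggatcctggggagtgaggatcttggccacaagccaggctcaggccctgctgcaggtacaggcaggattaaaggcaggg
PTGES2 start site peak, chr9:130890742-130890941, minus strand: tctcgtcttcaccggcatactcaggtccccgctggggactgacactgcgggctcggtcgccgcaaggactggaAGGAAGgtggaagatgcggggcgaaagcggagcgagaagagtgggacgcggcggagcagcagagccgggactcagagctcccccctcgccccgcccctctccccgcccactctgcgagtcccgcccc
PTGES3 start site peak, chr12:57082193-57082392, minus strand: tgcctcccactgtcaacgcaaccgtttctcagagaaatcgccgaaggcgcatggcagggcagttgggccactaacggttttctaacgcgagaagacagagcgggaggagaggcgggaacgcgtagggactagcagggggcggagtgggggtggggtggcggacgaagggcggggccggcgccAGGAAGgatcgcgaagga
PLA2G4A upstream of the first start, no peak, chr1:186797881-186798080, plus strand: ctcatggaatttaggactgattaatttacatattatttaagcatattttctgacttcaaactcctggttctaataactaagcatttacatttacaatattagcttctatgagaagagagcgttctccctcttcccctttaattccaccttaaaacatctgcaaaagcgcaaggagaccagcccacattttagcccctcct
HPGD upstream of the first start, no peak, chr4:175444306-175444505, minus strand: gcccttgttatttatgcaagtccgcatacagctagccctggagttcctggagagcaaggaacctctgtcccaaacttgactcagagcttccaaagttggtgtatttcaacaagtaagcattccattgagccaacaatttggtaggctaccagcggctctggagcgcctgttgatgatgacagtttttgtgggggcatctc

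The PTGS2 stretch held 5 cores within 200 bases, upstream of the canonical start and around its TATA box. The PTGES stretch held 2, and the PTGS1, PTGES2 and PTGES3 stretches held 1 each. The PTGS2 and PTGES stretches were centred on the midpoint of the peak, and those of PTGS1, PTGES2 and PTGES3 did not include it. The counts are thus not a ranking of the peaks. Over the whole peak, matches to the A form and the C form numbered 4 and 6 at PTGS2, and 4 and 6 at PTGES2. They numbered 6 and 4 at PTGES3, 7 and 1 at PTGES, and 6 and 0 at PTGS1. The PLA2G4A and HPGD stretches held 0. The HPGD stretch was taken at the outermost start and lay outside the 250 bp upstream of the canonical start. Those 250 bp held 1 match to the A form and 1 to the C form at HPGD, and 0 of either at PLA2G4A. The count of 0 in the HPGD stretch thus depends on where the window was put. It does not set HPGD apart from the members with a peak. All these matches describe the letters of the windows searched and are not bound sites.

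ETS1 peaks were listed near 5 of the 7 genes, against 87.8% of all protein-coding genes with a peak in the gene body or within 100 kb. PTGES had 16, PTGES2 had 14, PTGS1 had 10, PTGES3 had 7 and PTGS2 had 2. PLA2G4A and HPGD had 0. The windows of PTGS2, PLA2G4A and HPGD held 0 other coding genes, and those of the other members held 2 to 7. Whether this bears on the counts was not tested. The median over the 7 genes was 7 peaks, beside a median of 4 over all protein-coding genes (quartiles 2 and 8). Counts of this kind have no error over samples here, and the order of the genes was not tested.

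**Figure D1:**
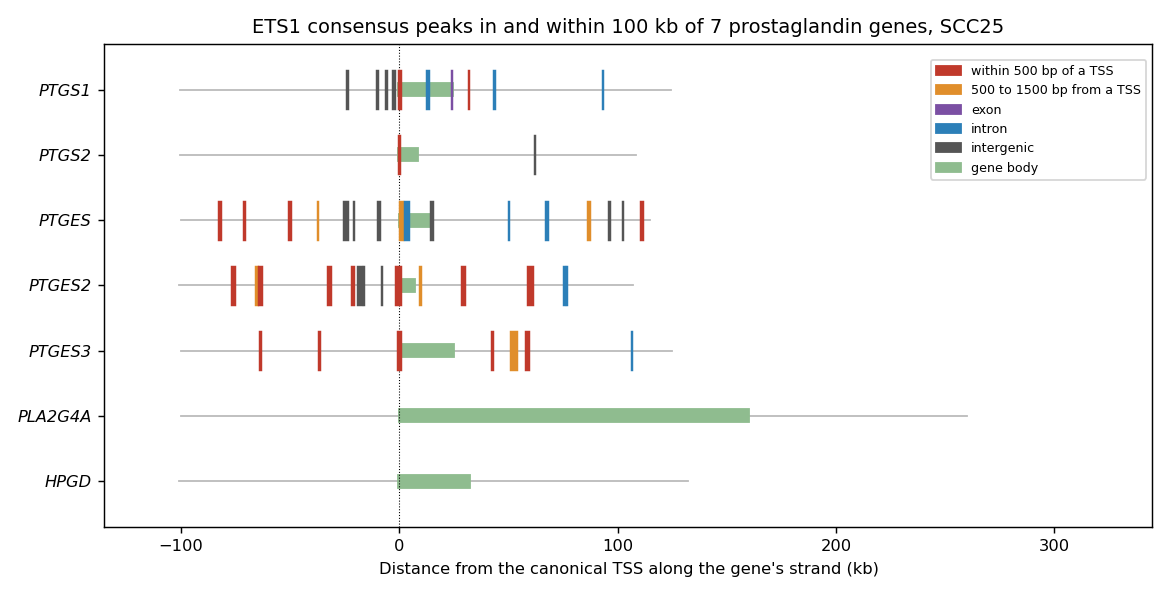
ETS1 peaks around the 7 genes, drawn by distance in kb from the canonical transcription start site along the strand of the gene. Each vertical mark is 1 peak drawn from its start to its end and coloured by position class, the green bar is the gene body and the grey line its window of 100 kb on each side. Of the 10 peaks of PTGS1, 8 lie in the gene or within 20 kb of it. Those of PTGES and PTGES2 spread over the whole window, and the PLA2G4A and HPGD lines are empty.

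A peak lay within 500 bp of an own transcription start site (TSS) in 4 of the 7 genes, namely PTGS1, PTGS2, PTGES2 and PTGES3, beside 53.3% of all protein-coding genes. A peak lay inside the gene body in 5 of the 7, the same 4 and PTGES, beside 53.6% of all protein-coding genes. Neither share can be read as more or less than the background with 7 genes. Of the 49 peaks, 19 lay within 500 bp of a TSS of some gene, 6 lay 500 to 1500 bp from one, 1 lay in an exon, 9 in introns and 14 in intergenic sequence. As shares of the 49 these were 38.8%, 12.2%, 2.04%, 18.4% and 28.6%, beside 43.3%, 8.51%, 2.92%, 26.1% and 19.1% of all 26961 nuclear peaks. Only 4 of the 19 TSS peaks were at a start of a member and the other 15 were at a start of another gene. Likewise 2 of the 9 intronic peaks were in an intron of a member, 1 in PTGS1 and 1 in PTGES, and 7 were in introns of other genes. When each coding gene was given its canonical start alone, the nearest coding start was that of the member for 22 peaks and that of another gene for 27, and nearest coding starts below are counted in this way.

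**Figure D2:**
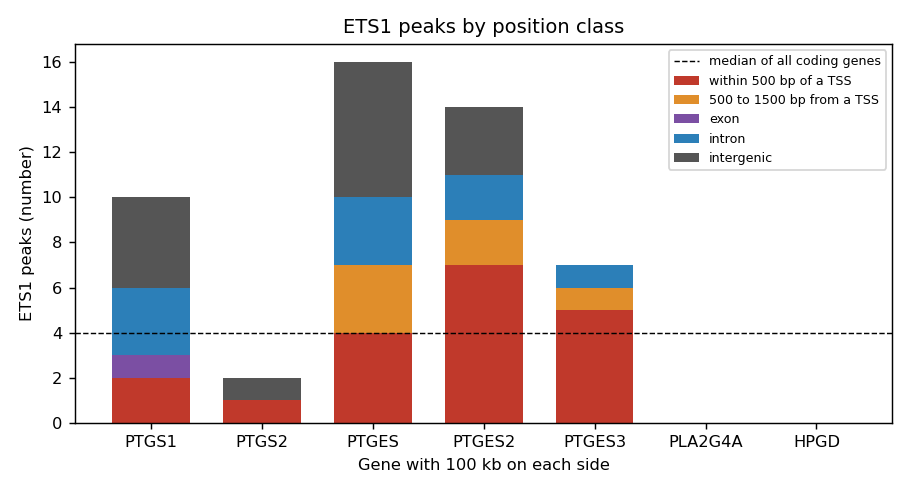
Number of ETS1 peaks in the gene body or within 100 kb of each of the 7 genes, stacked by position class. The dashed line is the median of all protein-coding genes, 4 peaks, which PTGS1, PTGES, PTGES2 and PTGES3 exceed, while PTGS2 stands at 2 and PLA2G4A and HPGD at 0.

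PLA2G4A (ENSG00000116711.10, chr1:186798081-186958113, plus strand) is the phospholipase that feeds the pathway, and no ETS1 peak lay in its 160033 bp or within 100 kb. It shares this with 12.2% of protein-coding genes, 2452 in number. Its peak-free stretch ran for 6.13 Mb, from the peak over the PTGS2 promoter on the left to a peak at the TSS of RGS2, a regulator of G protein signalling, on the right. Of the 26937 intervals between neighbouring nuclear peaks, 17 were as long or longer. The stretch held 6 protein-coding genes, BRINP3, PLA2G4A, RGS1, RGS13, RGS18 and RGS21, and no unknown bases. The peak that bounds it on the left, chr1:186649192-186650137, was 148 kb from the PLA2G4A start, with 0 coding genes between PTGS2 and PLA2G4A. Thus the start site peak of the inducible cyclooxygenase was also the listed ETS1 peak closest to the phospholipase gene. The 250 bp upstream of the canonical PLA2G4A start had a GC content of 38.8%, the lowest of the 7 genes, a CpG observed to expected ratio of 0.265, and no core of either form on either strand.

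PTGS1 (ENSG00000095303.17, chr9:125132809-125157982, plus strand) encodes the constitutive cyclooxygenase and had 10 peaks, 3 in the gene body, 4 upstream and 3 downstream. It had the densest cluster of peaks close to the gene among the 7, since 8 of its 10 peaks lay in the gene or within 20 kb, and 97.7% of protein-coding genes had fewer than 8 by that rule. Within 100 kb 81.6% had fewer than 10. The count of PTGS1 depended on the lower part of the list, since the first 13485 peaks, in an order that the sources used here do not explain, held 2 of its 10 peaks within 100 kb, as many as for PTGS2, and 10 for PTGES, 9 for PTGES2 and 5 for PTGES3. PTGS1 itself had the nearest coding start for 9 of the 10 peaks, with 2 other coding genes in the window. The start site peak, chr9:125132602-125134045, was 1444 bp wide, had its midpoint 21 bp past the canonical start, and covered 9 of the 10 annotated starts of the gene. Upstream of it stood 4 intergenic peaks whose midpoints were 2697, 6146, 10075 and 23968 bp before the canonical start. They were 676 to 1222 bp wide. Downstream, the widest PTGS1 peak, 1660 bp at chr9:125145431-125147090, lay in intron 8, with its midpoint 12958 bp past the canonical start. The only exonic peak of the 49, chr9:125156876-125157483 and 608 bp wide, lay in exon 11, near the 3′ end of the gene. Beyond the gene were a peak of 287 bp at the start of the noncoding gene ENSG00000233616 and a pair in introns of the noncoding gene ENSG00000234156. Over its whole width the intron 8 peak held 3 matches to AGGAAG or AGGAAA and 0 to CGGAAG or CGGAAA. It is shown because it was the widest of PTGS1 and its middle held 1 AP-1 heptamer, read here as tgactca. The middle held none of the longer ETS cores, which is why the stretch has no capitals.
PTGS1 intron 8 peak, chr9:125146161-125146360, plus strand: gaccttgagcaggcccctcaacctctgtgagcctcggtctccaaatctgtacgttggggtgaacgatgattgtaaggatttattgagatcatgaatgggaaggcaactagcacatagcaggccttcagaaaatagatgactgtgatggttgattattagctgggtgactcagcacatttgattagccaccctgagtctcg

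PTGS2 (ENSG00000073756.13, chr1:186640923-186650054, minus strand) encodes the inducible cyclooxygenase and had 2 peaks, fewer than the median coding gene, in a window with 0 other coding genes. The start site peak was 946 bp wide with its midpoint 110 bp upstream of the canonical start, and it covered 3 of the 4 annotated starts. The start of PACERR, the antisense noncoding RNA at the same promoter, was 68 bp from the midpoint, so the list cannot assign the peak to either transcript. In its central 300 bp this peak had 2 matches to AGGAAG or AGGAAA and 3 to CGGAAG or CGGAAA, and over its whole width it had 4 and 6. The other peak, chr1:186587287-186587875, was 589 bp wide and intergenic, 53342 bp beyond the end of the gene. No peak lay upstream for 6128074 bp, which is the stretch that holds PLA2G4A. The 2 cyclooxygenase genes therefore both had a start site peak, but 8 peaks lay within 20 kb of PTGS1 and 1 within 20 kb of PTGS2.

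PTGES (ENSG00000148344.11, chr9:132500610-132515321, minus strand) encodes microsomal prostaglandin E synthase, the inducible enzyme that works with PTGS2. It had the most peaks of the 7 genes within 100 kb, 16, and 95.8% of protein-coding genes had fewer. By the distance rule none was at its own start. The peak nearest to it, chr9:132513407-132515385, was 1979 bp wide and covered both annotated starts near its upstream edge, but its midpoint lay in intron 1, 902 bp from the nearest start. Next to it in the same intron was the widest of the 16, 2396 bp at chr9:132510821-132513216, with its midpoint 3302 bp past the canonical start. The first of them held 7 matches to AGGAAG or AGGAAA and 1 to CGGAAG or CGGAAA over its whole width. In the central 300 bp it held 2 and 0, and the second peak held 0 and 0. Upstream were 3 intergenic peaks at 9346, 20930 and 24734 bp, the last of them 2300 bp wide. A peak of 1180 bp, chr9:132499886-132501065, overlapped the end of the gene, with its midpoint 134 bp beyond that end. PTGES had the nearest coding start for 6 of its 16 peaks. The others were nearer to starts of neighbours, of which the window held 6, and included 4 TSS peaks at C9orf78, at TOR1A and TOR1B, which encode torsins of the endoplasmic reticulum, and at ASB6, and several in and beside PRRX2, a homeobox gene.

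PTGES2 (ENSG00000148334.16, chr9:130882972-130890741, minus strand) encodes a membrane-associated prostaglandin E synthase and had 14 peaks, with 92.7% of protein-coding genes having fewer. Its start site peak, chr9:130889347-130891733, was 2387 bp wide and covered 15 of its 16 annotated starts. The midpoint was 73 bp from an own start but 532 bp upstream of the canonical one, so that with canonical transcripts alone it was not a start site peak by the 500 bp rule. The whole peak held 4 matches to AGGAAG or AGGAAA and 6 to CGGAAG or CGGAAA. It also covered a start of the noncoding gene PTGES2-AS1, which lies in the stretch shown above. The list therefore cannot assign the peak to either gene. PTGES2 had the nearest canonical coding start for 4 of the 14 peaks, among them an intergenic peak of 735 bp 7338 bp upstream of the gene. By all annotated starts, and apart from the start site peak, 6 of the 14 were at starts of other genes, DNM1, CIZ1, BBLN, LCN2, SLC25A25 and NAIF1. The SLC25A25 peak is in both counts, since it lay 53 bp from an alternative start of that gene and its nearest canonical start was that of PTGES2, 29245 bp away. LCN2, which encodes a secreted lipocalin, had a TSS peak of 1133 bp and a wide intergenic peak of 2370 bp between it and PTGES2. The window held 6 other coding genes, and 5 of the 14 peaks lay in PTGES2 or within 20 kb of it.

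PTGES3 (ENSG00000110958.16, chr12:57057125-57082192, minus strand) encodes the cytosolic prostaglandin E synthase, which is also the HSP90 co-chaperone p23. It had 7 peaks, and only 1 of them, the start site peak chr12:57081076-57082874, had the PTGES3 start as the nearest coding start. That peak was 1799 bp wide, its midpoint was 29 bp from an own start, and it covered all 6 annotated starts. Its central 300 bp held 2 matches to AGGAAG or AGGAAA and 1 to CGGAAG or CGGAAA. Of the other 6 peaks, 4 were at starts of other genes, namely HSD17B6 next to PRIM1, a DNA primase subunit, NACA, a ribosome-associated chaperone, ATP5F1B, a subunit of the mitochondrial ATP synthase, and BAZ2A, a chromatin remodelling subunit. The widest of all 49 peaks, 3159 bp at chr12:57027942-57031100, lay 581 bp from another BAZ2A start and held 18 matches to AGGAAG or AGGAAA over its width. The last peak, of 339 bp, was in an intron of RBMS2. Within 20 kb of the gene PTGES3 had 2 peaks, and 50.4% of protein-coding genes had fewer.

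HPGD (ENSG00000164120.14, chr4:175411326-175444305, minus strand), the breakdown enzyme, had no peak in its 32980 bp or within 100 kb, and no other coding gene lay in the window. Its peak-free stretch was 1.91 Mb long. It ran from a TSS peak of CEP44, a centrosomal protein gene, 206 kb from HPGD, to a TSS peak of SPATA4 1.67 Mb away, and 193 of the 26937 intervals were as long or longer. The stretch held 5 protein-coding genes, ADAM29, GLRA3, GPM6A, HPGD and WDR17. In contrast to PLA2G4A, the promoter of HPGD was rich in CpG, with a GC content of 70.8% and a CpG ratio of 0.934 in the 250 bp upstream of the canonical start, and it held 1 match to AGGAAG or AGGAAA and 1 to CGGAAG or CGGAAA. The 2 genes without a peak therefore differed in promoter composition.

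**Figure D3:**
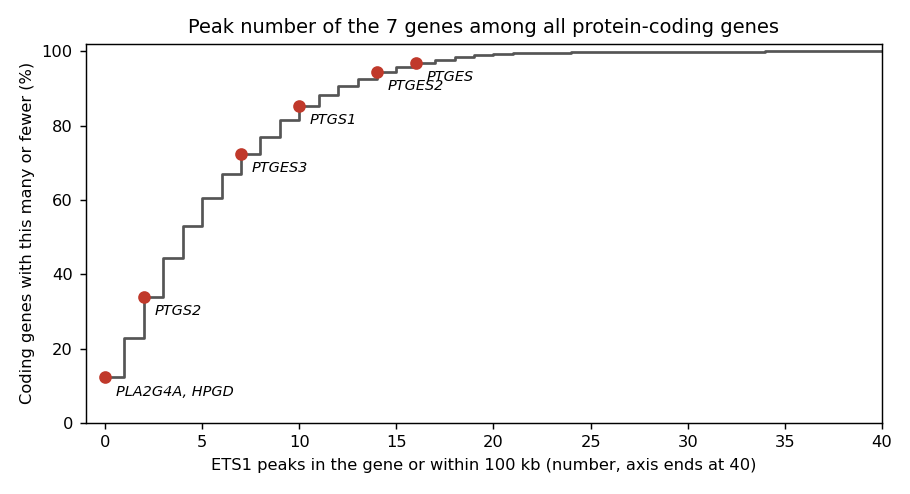
Share of all protein-coding genes (%) with a given number of ETS1 peaks or fewer in the gene body or within 100 kb, as a step curve, with the 7 genes as points. PLA2G4A and HPGD sit at 0 peaks, PTGS2 at 2 lies below the median of 4, and PTGES3, PTGS1, PTGES2 and PTGES lie above it at 7, 10, 14 and 16.

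The windows differ in length with the gene, so the counts were also expressed per 10 kb. Over gene and 100 kb flanks, PTGES had 0.745 peaks per 10 kb, PTGES2 0.674, PTGS1 0.444, PTGES3 0.311 and PTGS2 0.0956, beside a median of 0.161 over protein-coding genes. Over gene and 20 kb flanks the order changed, with 1.23 for PTGS1, 1.05 for PTGES2, 0.731 for PTGES, 0.307 for PTGES3 and 0.204 for PTGS2, beside a median of 0.178. PTGS1 thus moved from the third place to the first. The share of window peaks for which the gene itself had the nearest canonical coding start was 100% at PTGS2 with 0 other coding genes in the window, 90.0% at PTGS1 with 2, 37.5% at PTGES with 6, 28.6% at PTGES2 with 6 and 14.3% at PTGES3 with 7, beside a median of 20% over the protein-coding genes with a peak in the window.

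The 49 peaks had a median width of 1217 bp (range 287 to 3159 bp), beside 969 bp over the list (quartiles 609 and 1461 bp). The 4 start site peaks of the members were 946, 1444, 1799 and 2387 bp wide, with a median of 1621.5 bp. Peaks at any TSS near the members had a median of 1444 bp, beside 1262 bp for all nuclear TSS peaks, and the remaining ones 940.5 bp beside 740 bp. PTGS2 had the narrowest start site peak of the 4. Width is given as a position measure and not as a measure of occupancy.

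Across all protein-coding genes, start site peaks were more frequent at promoters rich in CpG. Among protein-coding genes whose 250 bp upstream of the canonical start had a CpG ratio of at least 0.6, 71.1% had a start site peak, and 2 of the 3 members in this class did, PTGES2 and PTGES3 but not HPGD. Among genes under 0.6, 21.5% had one, and 2 of the 4 members in this class did, PTGS1 and PTGS2 but not PTGES and PLA2G4A. The CpG ratios of PTGS1 and PTGS2, 0.563 and 0.585, were just under the threshold. That of PTGES was 0.387 although its GC content was 61.2%. PTGES2 and PTGES3 had the highest ratios of the 7, 1.11 and 1.06. Promoter matches to AGGAAG or AGGAAA numbered 2 at PTGS1, 2 at PTGS2, 1 each at PTGES, PTGES3 and HPGD, and 0 at PTGES2 and PLA2G4A. Those to CGGAAG or CGGAAA numbered 3 at PTGS2, 1 each at PTGES2, PTGES3 and HPGD, and 0 at the others. The PTGS2 promoter was thus the one with the most cores, and the 250 bp held 1 TATAAA as well.

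**Figure D4:**
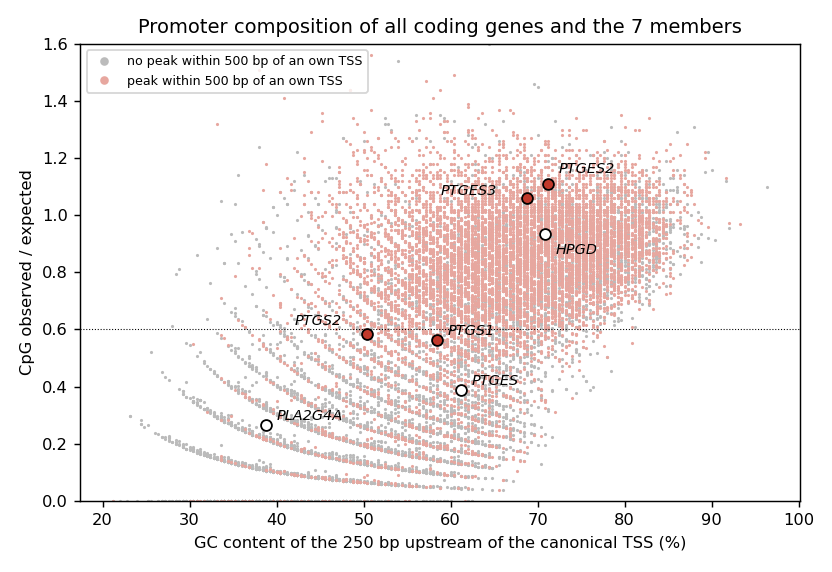
GC content (%) against CpG observed to expected ratio in the 250 bp upstream of the canonical start, 1 point per protein-coding gene, red where a peak lay within 500 bp of an own start and grey where none did. The 7 genes are the large points, filled red with such a peak and white without, and the dotted line is the ratio of 0.6. PTGES2, PTGES3 and HPGD lie above the line, and the first of these had the highest ratio, 1.11, whereas PLA2G4A is at the lower left with 0.265.

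ETS cores were then counted in the central 300 bp of the 49 peaks on both strands. AGGAAG or AGGAAA was found in 25 of the 49, or 51.0% (95% Wilson interval 37.5 to 64.4%, which covers counting only), beside 56.8% of all nuclear peaks and 42.3% of protein-coding promoters, for which the shorter window of 250 bp upstream of the canonical start was searched. CGGAAG or CGGAAA was found in 14, or 28.6%, beside 25.6% of nuclear peaks and 29.3% of promoters. By position, AGGAAG or AGGAAA was found in 10 of the 19 TSS peaks and 15 of the other 30, where all nuclear TSS peaks and other peaks had 46.1% and 65.0%. CGGAAG or CGGAAA was found in 8 of 19 and 6 of 30, where the nuclear shares were 37.2% and 16.8%. GGAA alone, which lies inside all the longer cores, was in 46 of the 49, or 93.9%, beside 96.3% of nuclear peaks and 92.0% of promoters. The 3 peaks without it were TSS peaks at neighbours, TOR1B near PTGES and DNM1 and CIZ1 near PTGES2. The difference of these shares from those of the list was not tested.

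Other motifs were sparse. The AP-1 heptamer TGAGTCA or TGACTCA was in 7 of the 49 peaks, or 14.3%, beside 16.7% of nuclear peaks and 3.06% of promoters. Away from TSSs it was in 6 of 30, beside 25.5% of all such peaks, and these were the PTGS1 intron 8 peak, 2 near PTGES, 2 near PTGES2 and the RBMS2 peak near PTGES3. At TSSs it was in 1 of 19, beside 5.32%, the peak at ENSG00000233616 near PTGS1. TGACGTCA, 1 exact form of the cyclic AMP response element, was in 0, beside 0.883% of nuclear peaks. CACGTG, 1 exact form of the E-box, was in 6 or 12.2%, beside 6.81% of nuclear peaks and 7.87% of promoters. Other forms of these 2 elements were not searched, so their absence from a peak is not shown. TATAAA was in 4 or 8.16%, beside 4.65% of nuclear peaks and 9.28% of promoters. None of the start site peaks of the members held an AP-1 heptamer in this window.

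The rest of the prostanoid and arachidonic acid pathway was counted by role over 43 other genes. Of these 18 had a peak within 500 bp of an own start, 27 had one in the gene body and 41 had one in the body or within 100 kb, where the background shares were 53.3%, 53.6% and 87.8%. The median was 6 peaks per gene. Among 12 phospholipases and lipases that release fatty acids, 5 had a start site peak, PLA2G4C, PLA2G4D, PLA2G6, MGLL and DAGLB. PLA2G4C and PLA2G4D, relatives of PLA2G4A, had 5 and 7 peaks in their windows where PLA2G4A had 0, and MGLL, the lipase that releases arachidonic acid from its monoglyceride, had 14 with 8 in the gene body. Among 9 other prostanoid synthases and reductases, 2 had a start site peak, PTGDS, the prostaglandin D synthase, with 16 peaks in its window, and CBR1, a carbonyl reductase, with 9. AKR1C3, which makes prostaglandin F2 forms, had no peak within 100 kb, and the nearest was 169 kb away. Among 4 genes of breakdown and transport, 3 had a start site peak, namely PTGR1 and PTGR2, which act on the product of HPGD, and ABCC4, an exporter of prostaglandins.

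Among 9 prostanoid receptors, 2 had a start site peak, PTGER1 and PTGER2, both receptors for prostaglandin E2, with 11 and 1 peaks in their windows. PTGER3 and PTGER4, which are also receptors for prostaglandin E2, had no start site peak, with 1 and 4 peaks in their windows. PTGFR, the receptor for prostaglandin F2 forms, had no peak within 100 kb, and the nearest peak was 291 kb away. In the lipoxygenase branch, which uses the same arachidonic acid, 6 of 9 had a start site peak, ALOX5, ALOX12, ALOX12B, ALOXE3, LTA4H and LTC4S. ALOXE3 and ALOX12B, the lipoxygenases of the epidermal barrier, had 22 and 21 peaks, but they are neighbours and their windows share peaks. With 4 to 12 genes in a role, differences between the roles were not tested.

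**Figure D5:**
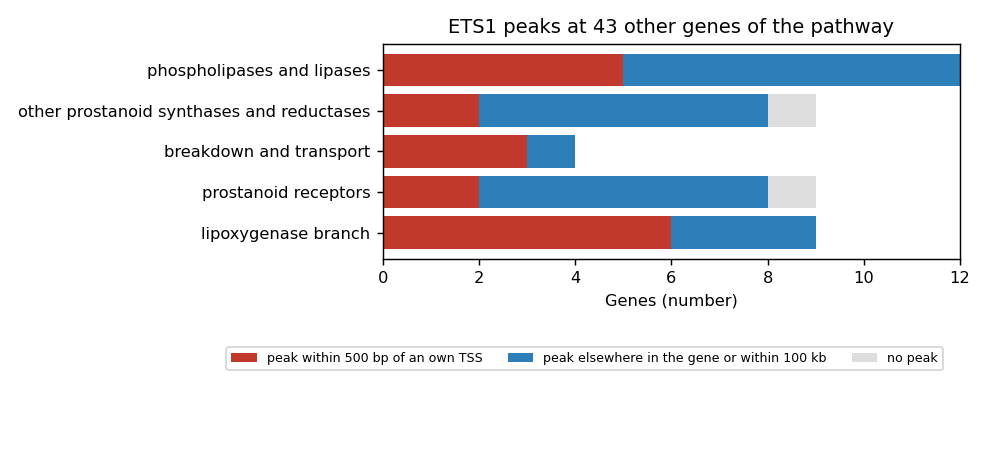
Number of genes in each of 5 roles among the 43 other genes of the pathway, split into those with an ETS1 peak within 500 bp of an own start, those with a peak elsewhere in the gene or within 100 kb, and those with none. The lipoxygenase branch had 6 of 9 genes in the first class and the prostanoid receptors 2 of 9, and the genes without a peak are AKR1C3 and PTGFR.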

How the data were processed

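ETS1 ChIP-Seq was performed by the authors in 3 samples of SCC25 cells. Reads were mapped to hg19 with Bowtie 1.1.1, and pooled read files were made with SAMtools 1.3 (versions per the submitters' processing notes). Reads with several loci were dropped, peaks were called with MACS2 against input, and IDR gave 1 pooled list. The deposited list has 3 columns, chromosome, start and end, with no unit of signal and no depth per sample.

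Peaks were assigned by midpoint to GENCODE 44 genes on GRCh37. Classes followed, in order, 500 and 1500 bp from any TSS, exon, intron and intergenic. The 9 mitochondrial peaks, which reach 107 bp past the reference, were left out of classes and motifs. No test was run. Motifs were exact matches on both strands in the central 300 bp. Members, lists and alternatives were chosen with earlier results of these data known. Named were the members, other pathway genes with a peak at an own TSS or none in the window, and genes with the nearest TSS to a member's peak. The genes that bound or lie in the peak-free stretches, and RBMS2, PTGER3 and PTGER4, were named after their values were seen. The likeness of gene profiles could not be ranked, since there is no profile over samples. The code found 1000 of 1000 peaks planted in simulated data. Sequence was read with pysam 0.24.0, and tables and plots were made with pandas 2.3.3, matplotlib 3.10.9, numpy 2.4.6 and scipy 1.17.1 on Python 3.11.15.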

Additional observations from a re-analysis of the deposited data

How the results depend on the processing

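Counts of peaks fell with the size of the window, as its construction requires. With windows of 50 kb and 20 kb in place of 100 kb, the members had 31 and 20 peaks in place of 49, of which 11 and 6 in place of 19 were at any TSS, 4 and 3 in place of 9 were intronic, and with 20 kb 8 in place of 14 were intergenic and the median per member was 2 in place of 7. With the first 13485 peaks of the list, whose order is not explained in the sources used here, 28 peaks were counted, with 2 in place of 10 at PTGS1, 3 intronic, 8 intergenic and a median of 2. The share of peaks with AGGAAG or AGGAAA, 51.0% in 300 bp, was 34.7% in 200 bp, 69.4% in 600 bp and 89.8% in the whole peak, and with GGAA or with CGGAAG or CGGAAA in its place it was 93.9% or 28.6%. Over all nuclear peaks the first pair of windows gave 44% and 79.2%. Of the summary values under these and the other alternatives, 36 were labelled as unmoved and 17 as moved. The label was coarse. With any overlap of the peak, intronic peaks went from 9 to 6 and peaks at any TSS from 19 to 25, and both were labelled as unmoved. These numbers are therefore not a measure of stability. The members with a start site peak numbered 5 when any overlap or a distance of 1000 bp was allowed, which added PTGES, 3 with canonical transcripts (without PTGES2) and 3 with the first 13485 peaks (without PTGS1). PLA2G4A and HPGD had 0 peaks under each window and setting run. No replicate could be left out and no paired analysis was possible because the list pools the 3 samples. The list carries no peak height and no depth, which the study's methods give only as a range of reads per sample, and sites under the threshold are not in it.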
